A study of Mus musculus with 4 samples.

Results

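The cells described here are 615 of the 1854 barcodes kept from a library of the epithelium of the mouse embryonic parotid gland (33.2%, 95% interval 31.0 to 35.4). They were chosen by 4 genes: each held at least 3 unique molecular identifiers (UMIs, the tags by which captured RNA molecules are counted) of Rprm, Igfbp5, Fndc1 and Fas together. They also held no UMI of Sox10, a transcription factor gene of the salivary end bud, and less than 2000 counts per 1000000 UMIs (CPM) of the chemokine gene Cxcl14. A kept barcode had at least 500 genes and at most 10% of its UMIs from mitochondrial genes. All other kept barcodes of the same library, 1239 cells, served as the comparison. Because measured values of the 4 genes chose the cells, every difference between these sets within the library is a description, with no test.

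The tissue came from ICR mouse embryos at embryonic day 12, with no allele or treatment given in the labels, and approximately 10 parotid and 10 submandibular glands were taken. Epithelium was parted from mesenchyme with the enzyme Dispase II, and the cells of each tissue were captured on the 10x Chromium droplet system. The series holds 4 libraries, 1 for the epithelium and 1 for the mesenchyme of each gland. With 1 library per tissue there is no replicate, so the intervals below cover counting error only and say nothing of the spread between embryos or litters.

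Rprm encodes reprimo, a protein known as a target of the tumour suppressor p53 that holds cultured cells in the G2 phase when it is supplied in excess. Igfbp5 encodes a secreted binding protein of the insulin-like growth factors, Fndc1 a protein with fibronectin type III domains, and Fas a death receptor of the tumour necrosis factor receptor family and another known p53 target. At this stage the salivary epithelium is a young bud that grows from the lining of the mouth. Fibroblast growth factors, retinoic acid and transcription factors of the oral ectoderm are known to act in the ectoderm of the developing mouth.

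The label of these cells names Rprm and Igfbp5, but the rule chose them far more by Igfbp5 than by Rprm. Of the 3539 UMIs that the 4 genes had in the chosen cells, Igfbp5 gave 2808 (79.3%), Fas 297 (8.39%), Rprm 268 (7.57%) and Fndc1 166 (4.69%). The threshold of 3 UMIs was reached on Igfbp5 alone by 512 of the 615 cells, and 281 cells held Igfbp5 with none of the other 3 genes. A UMI of Rprm was found in 139 cells (22.6%, 19.4 to 26.1). Cells with all 4 genes numbered 16, with 3 genes 100, with 2 genes 213 and with 1 gene 286. The label is therefore not used as a name below: the cells are called rule-positive cells.

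In GRCm38, the build also called mm10, Rprm lies on the minus strand of chromosome 2 (chr2:54084093-54085552) and Igfbp5 on the minus strand of chromosome 1 (chr1:72857932-72874884). Fndc1 lies on the minus strand of chromosome 17 (chr17:7738569-7827302) and Fas on the plus strand of chromosome 19 (chr19:34290666-34327772). The promoter windows of Igfbp5, Fas and Rprm, the 3 genes that gave most of the selection, are shown here, with that of Dapl1, which was at least 2-fold higher in rule-positive cells than in each other part of the library. They give the sequence beside the start of genes that were detected in the same cells. Each window holds 250 bases before and 50 bases after the gene's start in RefSeq for GRCm38.p6, read 5′ to 3′ along the gene. Capitals mark matches to the GC box, spelled GGGCGG, and to the TATA box, spelled TATAAA, on either strand. The matches of these motifs do not overlap.
Rprm: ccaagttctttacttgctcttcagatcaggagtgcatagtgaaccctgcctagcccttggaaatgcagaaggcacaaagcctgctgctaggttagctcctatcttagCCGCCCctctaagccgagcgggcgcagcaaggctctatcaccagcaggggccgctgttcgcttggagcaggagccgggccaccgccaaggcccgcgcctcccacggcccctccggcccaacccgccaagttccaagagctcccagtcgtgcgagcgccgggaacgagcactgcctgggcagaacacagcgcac
Igfbp5: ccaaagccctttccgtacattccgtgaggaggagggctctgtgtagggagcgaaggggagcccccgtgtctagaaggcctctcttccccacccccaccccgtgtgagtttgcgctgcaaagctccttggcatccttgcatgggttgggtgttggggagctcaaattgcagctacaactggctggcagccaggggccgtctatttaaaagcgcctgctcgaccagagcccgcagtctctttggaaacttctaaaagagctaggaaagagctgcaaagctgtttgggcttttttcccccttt
Fas: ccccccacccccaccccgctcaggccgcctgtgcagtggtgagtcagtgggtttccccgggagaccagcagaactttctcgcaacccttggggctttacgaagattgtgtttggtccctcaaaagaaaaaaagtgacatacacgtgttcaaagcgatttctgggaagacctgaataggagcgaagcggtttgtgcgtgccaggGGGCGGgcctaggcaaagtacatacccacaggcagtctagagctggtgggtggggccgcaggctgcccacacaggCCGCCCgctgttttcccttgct
Dapl1: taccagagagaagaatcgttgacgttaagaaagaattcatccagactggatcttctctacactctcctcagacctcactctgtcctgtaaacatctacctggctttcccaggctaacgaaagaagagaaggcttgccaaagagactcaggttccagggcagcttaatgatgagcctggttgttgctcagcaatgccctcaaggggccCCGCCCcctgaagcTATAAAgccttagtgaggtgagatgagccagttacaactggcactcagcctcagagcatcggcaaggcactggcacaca

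The windows lie at chr2:54085503-54085802 for Rprm (minus strand), chr1:72874816-72875115 for Igfbp5 (minus strand), chr19:34290409-34290708 for Fas (plus strand) and chr2:59484403-59484702 for Dapl1 (plus strand). The Dapl1 window held 1 TATA box and 1 GC box, the Fas window 2 GC boxes, the Rprm window 1 GC box and the Igfbp5 window neither. Over 32851 promoter windows of the same length, 35.7% held a GC box and 13.6% a TATA box. A p53 half-site, searched on both strands, had 0 matches in the windows of Rprm, Igfbp5, Fndc1, Fas and Dapl1 and was present in 8.36% of all windows, which says only that these letters are not within this stretch.

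Levels are given in CPM over the summed UMIs of a set of cells, a scale that is not adjusted for gene length. The terms of the rule divide the other cells of the library into 196 Sox10-positive cells, 405 Cxcl14-high cells with no Sox10, and 638 remaining cells that had neither and missed the threshold of 3 UMIs. Igfbp5 stood at 574 CPM in rule-positive cells (553 to 595), 370.0 in Cxcl14-high cells, 176 in Sox10-positive cells and 113 in the remaining cells. Igfbp5 was thus also abundant in Cxcl14-high cells, and 162 cells met the UMI threshold and were set aside for their Cxcl14 alone. Rprm stood at 54.8 CPM in rule-positive cells (48.4 to 61.7), 10.1 in the remaining cells, 8.66 in Sox10-positive cells and 1.40 in Cxcl14-high cells. Fas stood at 60.7 CPM in rule-positive cells, 20.0 in Sox10-positive cells, 10.3 in the remaining cells and 4.20 in Cxcl14-high cells. Fndc1 stood at 33.9 CPM in rule-positive cells, 17.9 in Sox10-positive cells, 8.07 in the remaining cells and 2.45 in Cxcl14-high cells. For Rprm, Fas and Fndc1 the interval of the rule-positive cells did not overlap that of any other set, as the rule makes likely, and all 3 genes were lowest in Cxcl14-high cells.

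**Figure D1:**
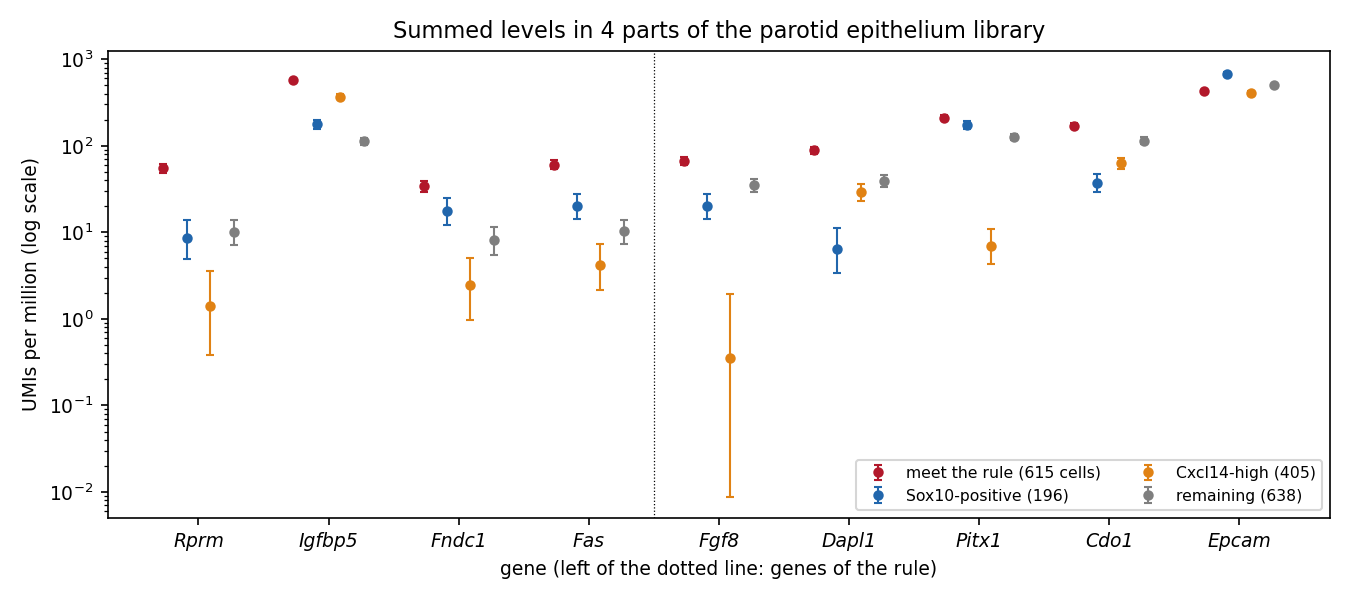
Summed level in CPM (log axis) of the 4 genes of the rule, left of the dotted line, and of 5 other genes in 4 sets of cells of the parotid epithelium library. Points are levels and bars exact 95% Poisson intervals. Rprm stood at 54.8 CPM in rule-positive cells and at 10.1 or less in the other sets, whereas Epcam stood between 407 and 674 in all 4.

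Rule-positive cells were deeper than the cells that missed the threshold, which bears on every share of cells with a UMI. The median was 7290 UMIs per cell in rule-positive cells, 8689.5 in Sox10-positive cells, 6568 in Cxcl14-high cells and 5868.5 in the remaining cells. Median mitochondrial shares were close, from 4.45% to 5.12%. These medians hide 1 group: in the clustering described below, cluster 10 held 89 cells, of which 3 were rule-positive. Its median mitochondrial share was 0.0838% and its median depth 2343 UMIs. After each cell was thinned to 3000 UMIs, which left out 15 rule-positive and 134 other cells, Rprm was found in 12.2% of rule-positive and 1.72% of other cells, against 22.6% and 3.87% unthinned. Fas was then found in 15.2% and 3.44%, Fndc1 in 9.5% and 1.99%, and Igfbp5 in 82.2% and 40.4%. In Cxcl14-high cells, where Rprm was scarce, 0.988% had a Rprm UMI before thinning at a median of 6568 UMIs.

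The threshold cut through a range and not between separate groups. Rule-positive cells held 3 to 26 UMIs of the 4 genes with a median of 5, and 158 of them (25.7%) held exactly 3. These 158 cells had Rprm at 20.2 CPM, Fas at 41.4, Fgf8 at 71.3 and Pitx1 at 173. The 165 cells just outside, with 2 UMIs, had Rprm at 23.0, Fas at 20.4, Fgf8 at 47.0 and Pitx1 at 167. Rprm and Pitx1 were thus alike on both sides of the threshold. The 246 cells with 6 or more UMIs had Rprm at 96.0, Igfbp5 at 781 and the homeobox gene Barx2 at 705 CPM, and the 242 cells with 0 UMIs had Barx2 at 327.

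When 1 of the 4 genes was kept out of the selection, its level was still higher in the cells chosen by the others. The rule was chosen with earlier results of these data known, so this describes the cells and tests nothing. When 587 cells were chosen by the other 3 genes alone, Rprm stood at 47.7 CPM in them and at 20.2 in the other cells with no Sox10 and low Cxcl14, a ratio of 2.36 (1.83 to 3.07). Fas left out in the same way gave 49.5 against 26.0 (1.90, 1.51 to 2.41) and Fndc1 gave 28.5 against 15.5 (1.84, 1.36 to 2.51). With Igfbp5 left out, 95 cells reached the threshold and had Igfbp5 at 542 against 350 CPM in the rest, the smallest of the 4 ratios (1.55, 1.40 to 1.71). Over the 1253 cells with no Sox10 and low Cxcl14, Fas was found in 34.7% of the 170 cells with Rprm and in 15.7% of the 1083 cells without, at medians of 7296 and 6595 UMIs. Fndc1 was found in 27.6% and 11.3% of the same cells. The depth difference between these cells moves with each share, and its part in them was not tested.

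Outside the genes of the rule, few genes differed by much between rule-positive cells and all other kept cells. Of 2892 genes that reached 50 CPM on either side, 7 stood at least 2-fold higher in rule-positive cells (0.242%) and 9 at least 2-fold lower (0.311%). At a ratio of 1.5, 32 were higher (1.11%) and 31 lower (1.07%). The higher genes included Fgf8, Dapl1, Pitx1, Cdo1, Galnt18 and Celf2.

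Fgf8, a signal known from the oral ectoderm and the branchial arches, stood at 66.6 CPM in rule-positive cells (59.6 to 74.2), 34.8 in the remaining cells, 20.0 in Sox10-positive cells and 0.350 in Cxcl14-high cells. Against all other cells the ratio was 3.28 (2.72 to 3.97), and a Fgf8 UMI was found in 28.3% of rule-positive and 7.59% of other cells. Dapl1, a gene known for holding back proliferation in the retinal pigment epithelium, stood at 88.3 CPM, against 39.6 in the remaining cells, 29.0 in Cxcl14-high cells and 6.49 in Sox10-positive cells, a ratio of 3.04 to all other cells (2.59 to 3.56). Fgf8 was nearly missing from Cxcl14-high cells and Dapl1 was lowest in Sox10-positive cells. Pitx1, a homeobox gene of the oral ectoderm, stood at 212 CPM in rule-positive cells and 97.3 in the others (2.18, 1.98 to 2.38), with 174 in Sox10-positive cells and 6.99 in Cxcl14-high cells. The ratio of Pitx1 was 1.67 (1.50 to 1.86) to the remaining cells and 1.22 to Sox10-positive cells, and without the Cxcl14 term its log2 ratio was 0.61 in place of 1.12. Cdo1, the cysteine dioxygenase gene (170.2 against 80.7 CPM), Galnt18, an N-acetylgalactosaminyltransferase gene (81.3 against 39.3), and Celf2, a gene of an RNA-binding splicing regulator (167 against 82.6), were 2.02 to 2.11 times as high as in the others.

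Among the 9 lower genes, the glucose transporter gene Slc2a3 had the lowest ratio, with 34.5 CPM in rule-positive cells and 125 in the others (0.28, 0.23 to 0.32). Slc2a3 reached 226 CPM in the remaining cells and only 8.12 in Sox10-positive cells, so the rule-positive cells lay between these sets. In 207 cells chosen without Igfbp5, by at least 2 UMIs of Rprm, Fndc1 and Fas, the Slc2a3 ratio was 0.67 (0.54 to 0.82). That choice was made after the data had been seen. Irx2, an Iroquois homeobox gene (0.30), Lmo1, a LIM-only gene (0.36), Dcn, the decorin gene (0.42), and Tfap2b, an AP-2 transcription factor gene (0.47), were all highest in Cxcl14-high cells, with Lmo1 at 512 CPM there and 79.9 in rule-positive cells. The rule itself sets Cxcl14-high cells aside, and without that term the log2 ratio of Lmo1 was 0.048 in place of -1.47. Etv4, an ETS factor gene and a known target of fibroblast growth factor signalling, and the annexin gene Anxa3 were highest in Sox10-positive cells: Etv4 stood at 131 CPM there, 22.1 in rule-positive cells and 55.4 over all others (0.40, 0.32 to 0.49). Nrarp, a Notch target gene (0.32), was highest in the remaining cells, at 108 CPM, against 20.6 in rule-positive cells.

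**Figure D2:**
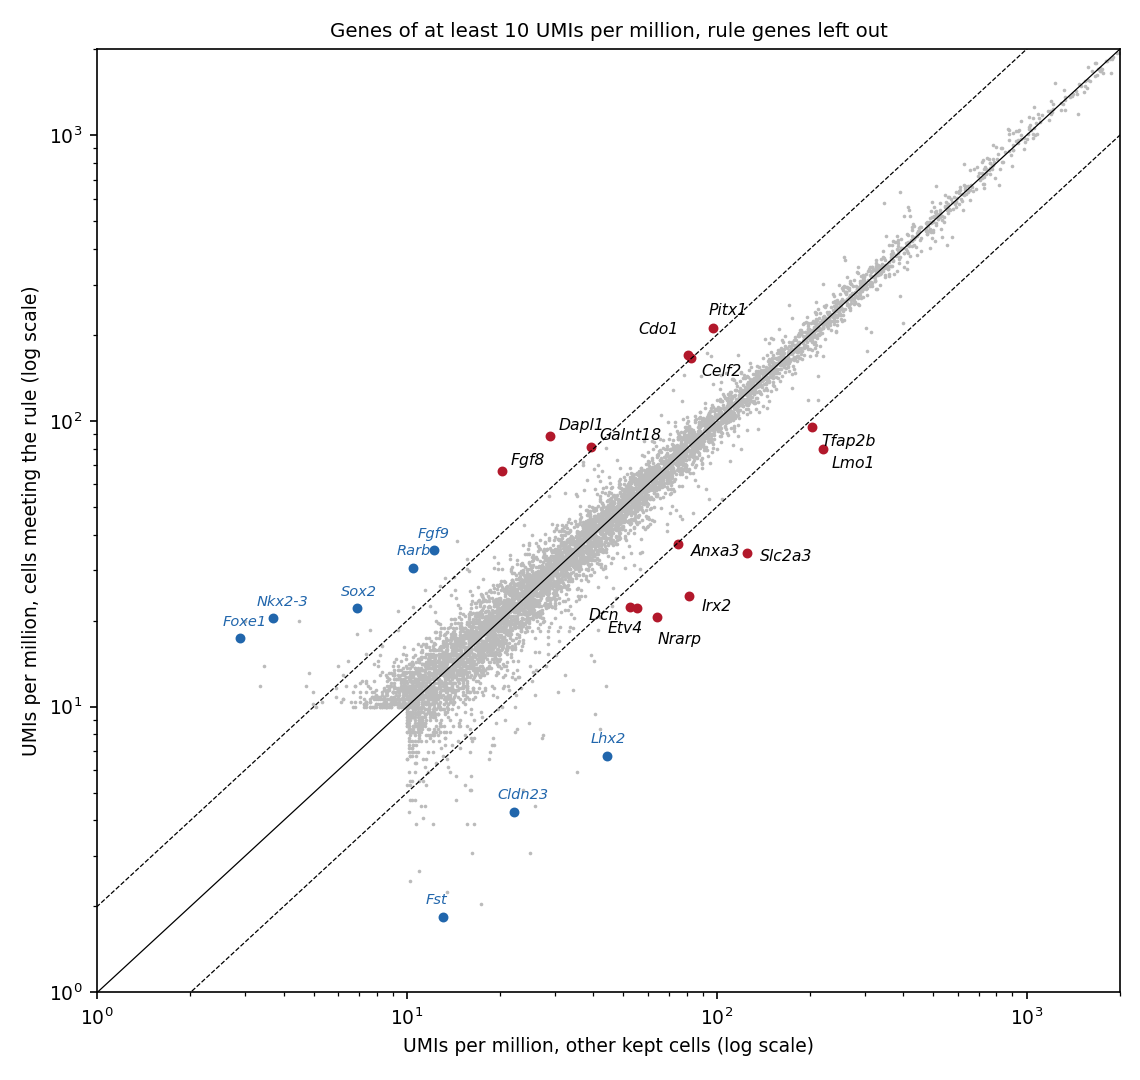
Summed level in CPM of genes with at least 10 CPM in rule-positive cells (vertical, log axis) or in all other kept cells (horizontal, log axis), without the genes of the rule and with axes cut to 1 to 2000 CPM. Red points are 14 of the 16 genes past 2-fold at 50 CPM, blue points are 8 list genes below that level, the solid line marks equal levels and dashed lines 2-fold. Most genes lie between the dashed lines, and Fgf8 (66.6 against 20.3) and Slc2a3 (34.5 against 125) stand outside them.

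Set against each other part of the library in turn, the rule-positive cells differed most from Sox10-positive cells, with 61 of 3006 genes at least 2-fold higher (2.03%) and 58 lower (1.93%). Against Cxcl14-high cells 41 of 2956 genes were higher (1.39%) and 39 lower (1.32%). Against the remaining cells only 2 of 2916 genes were higher, Dapl1 and Galnt18 (0.0686%), and 20 were lower (0.686%). Dapl1 was the only gene at least 2-fold higher than in all 3 (1 of 3188, 0.0314%), with a smallest ratio of 2.23 (1.85 to 2.69), and Fgf8 came next with a smallest ratio of 1.91. The 20 genes lower than in the remaining cells were headed by Rhov, a gene of a small GTPase (3.07 against 53.5 CPM), and Gabrp, a GABA receptor subunit gene (8.38 against 89.0). They included the claudin genes Cldn3, Cldn4 and Cldn7, the keratin genes Krt7 and Krt17, and Sfn (274 against 581 CPM). In the clustering described below, Gabrp, Rhov and Cldn3 were among the leading genes of cluster 11, with 82 cells of which 8 were rule-positive. Gabrp stood at 725 CPM there and at 8.36 or less in each other cluster. The part of this small cluster in the 20 lower genes was not tested. Krt17 rested on few cells: 329 of its 390 UMIs in rule-positive cells came from 10 cells.

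Transcription factor genes of the oral and pharyngeal ectoderm went both ways. With the minimum level set to 10 CPM, 34 of 7676 genes stood at least 2-fold higher in rule-positive cells (0.443%) and 81 lower (1.06%), and the median log2 ratio over all of them was 0.01. Of the 13 list genes of the oral and pharyngeal ectoderm at this level, 5 were higher and 4 lower, with a median log2 ratio of 0.25. Foxe1, a forkhead gene of the thyroid bud and palate, stood at 17.4 CPM against 2.88 in the others (6.02, 3.82 to 9.82). Nkx2-3, a homeobox gene known from the developing pharynx, stood at 20.4 against 3.69 (5.54, 3.69 to 8.52), and Sox2 at 22.1 against 6.92 (3.19, 2.31 to 4.45). All 3 were also higher than in the remaining cells, with ratios of 3.83, 2.70 and 2.03. The lower genes included Gata3 (0.29), Irx2 (0.30) and Irx1 (0.41), and Gata3 was highest in Cxcl14-high cells, at 59.1 CPM.

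Growth factor lists showed ligands and targets at different levels. Of 12 measured genes of the fibroblast growth factor pathway, Fgf8 and Fgf9 were at least 2-fold higher in rule-positive cells and Etv4 lower. Fgf9 stood at 35.4 against 12.2 CPM (2.89, 2.26 to 3.72). Against all other cells together, known targets and feedback genes of the pathway were not higher with the ligands. Dusp6 stood at 53.3 against 94.2 CPM (0.57), Etv5 at 47.8 against 70.7 (0.68) and Spry2 at 148 against 179 (0.83). These genes were highest in Sox10-positive cells, at 197, 160 and 350 CPM, and stood at 79.5, 69.6 and 199 in the remaining cells. In Cxcl14-high cells, where Fgf8 was nearly missing, Etv5 (14.7) and Spry2 (41.3) were lower than in rule-positive cells, and Dusp6 stood at 48.3. Of 9 measured genes of the retinoic acid pathway, the receptor gene Rarb was higher, at 30.7 against 10.5 (2.92, 2.24 to 3.83), and the binding protein gene Crabp2 stood at 169 against 96.1 (1.76). Crabp2 stood at 157 CPM in Sox10-positive cells, a ratio of 1.08 (0.94 to 1.24), and at 26.9 in Cxcl14-high cells. Of 13 genes of the BMP and TGF-beta pathways, the BMP antagonist gene Noggin (Nog) was higher, at 28.4 against 14.2 (2.0, 1.56 to 2.57), and 3 were lower, Fst (0.14), Tgfb2 (0.19) and Tgfb1 (0.36). Of 7 hedgehog pathway genes 0 were higher and 2 lower, among them the receptor gene Ptch1 (0.37), itself a known target of the pathway, which was highest in Cxcl14-high cells, at 65.4 CPM. Of 17 WNT genes, 0 were higher and 3 lower (Dkk4, Wif1 and Fzd10). Beside these lists, 0.443% of all genes at 10 CPM were higher and 1.06% lower, so the counts of 0 are near that share.

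Rprm and Fas are known p53 targets, and other genes of that kind were read beside them. Of 15 measured list genes, 0 were at least 2-fold higher and 1 was lower, beside 0.443% and 1.06% of all genes, with a median log2 ratio of -0.09 against 0.01 over all genes. Cdkn1a, the p21 gene, stood at 8.17 CPM in rule-positive cells and 12.3 in the others (0.66, 0.45 to 0.96). Pmaip1 was the lower gene (0.43, 0.29 to 0.63), and Phlda3 had a ratio above 1, at 58.4 against 42.8 (1.37, 1.17 to 1.6). Mdm2, the p53 inhibitor gene (33.3 against 34.8 CPM), and Bax, a death effector gene (224 against 238), were at like levels on both sides. Of 14 death receptor and apoptosis genes and of 11 cell cycle inhibitor genes, 0 passed 2-fold in either direction. With lists of this size and so few genes called in all, these counts of 0 are near the share over all genes. The ligand gene of Fas, Fasl, had 2 UMIs in rule-positive cells and 0 in the other cells.

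Of 8 other genes of the insulin-like growth factor system that reached 10 CPM, 0 passed 2-fold, beside 0.443% higher and 1.06% lower over all genes, so this count sets them apart from neither the rest nor Igfbp5. Below that level, the ligand gene Igf1 stood at 6.13 against 1.73 CPM (3.54, 1.85 to 7.09) and Igfbp7 at 5.11 against 1.73 (2.95, 1.5 to 6.03). Igfbp2 stood at 521 CPM in rule-positive cells and 419.9 in the others (1.24), Igfbp4 at 82.6 and 113 (0.73), and Igfbp3 at 219.9 and 399 (0.55, 0.51 to 0.59). Igfbp3 was highest in Sox10-positive cells, at 1219 CPM. The receptor gene Igf1r stood at 42.9 and 35.3 CPM, and the ligand gene Igf2 at 57.8 and 57.2.

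General epithelial genes were uneven: of 14 list genes 0 were at least 2-fold higher and 1 was lower, with a median log2 ratio of -0.12. Over all genes at 10 CPM, 0.443% were higher and 1.06% lower. The lower gene was Cldn3, a claudin gene of tight junctions (14.5 against 40.0 CPM, 0.36), and its relatives Cldn7 and Cldn4 had ratios of 0.55 and 0.74. Epcam, a surface protein gene of epithelia, stood at 427 CPM and was found in 85.7% of the cells, against 505 and 79.8% in the others. The keratin gene Krt15 stood at 2908 against 1894 CPM (1.54), with 3068 in Cxcl14-high cells and 275 in Sox10-positive cells. Krt19 stood at 145 against 78.4 (1.85), with 128 in the remaining cells (1.13) and 13.5 in Sox10-positive cells. Barx2 stood at 578 against 346 (1.67), with 708 in Sox10-positive cells and 36.7 in Cxcl14-high cells. Of 5 periderm genes 2 were at least 2-fold lower, Cldn23 (0.19) and Gabrp (0.20), with a median log2 ratio of -0.95. Both calls ended in 207 cells chosen without Igfbp5, by at least 2 UMIs of Rprm, Fndc1 and Fas, with ratios of 1.17 each. Both genes were among the leading genes of the small cluster 11. Of 6 placode genes 3 were lower, Lhx2 (6.74 against 44.2 CPM), Dkk4 and Lmo1, with a median of -0.99. Against the remaining cells Lhx2 (0.37, 0.24 to 0.57) and Dkk4 (0.42, 0.25 to 0.69) were still lower. Lmo1 (0.78) and Sostdc1 (0.89) had ratios nearer to 1 there, and Wnt10a (1.68) and Lef1 (1.12) ratios above 1.

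Markers of other cell types were summed over whole lists. The 12 mesenchyme genes summed to 129 CPM in rule-positive cells, 162 in the other cells and 4177 in the parotid mesenchyme library, and 3 reached 10 CPM in rule-positive cells. The 10 endothelial genes summed to 18.8 CPM, with Cdh5, Kdr, Tie1, Tek and Cldn5 at 0. The 9 macrophage genes summed to 7.15 CPM, with Csf1r, Tyrobp, Ptprc and C1qa at 0, against 49.4 in the remaining cells. The 9 skeletal muscle genes summed to 6.54 CPM, with Myf5, Myog, Pax7 and Actc1 at 0. Neural crest and glia genes summed to 21.9 CPM, with Foxd3 and Ednrb among those at 0, neuron genes to 3.68, erythroid genes to 21.5 and chondrogenic genes to 62.9. Rprm was more abundant in the parotid mesenchyme library than in this epithelium, at 118 CPM against 24.2 over all kept epithelial cells. Since the rule itself used Rprm, the part of mesenchymal RNA in the Rprm UMIs of rule-positive cells was not tested.

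How the rule-positive cells lay among all cells of the library was seen by clustering the 1854 kept cells on 2000 variable genes, which gave 13 clusters. Rule-positive cells were the majority in 3 clusters, with 200 of 326 cells in cluster 1 (61.3%), 144 of 262 in cluster 2 (55.0%) and 76 of 111 in cluster 9 (68.5%). These 3 clusters held 420 of the 615 cells (68.3%), and each of the 13 clusters held some. Fgf8 stood at 52.2 CPM in cluster 1, 76.2 in cluster 2 and 105 in cluster 9, and also at 50.7 in cluster 5, where 67 of 145 cells were rule-positive (46.2%). Clusters 1, 2 and 9 differed in cell cycle genes. Summed S phase genes stood at 2334, 6247 and 2366 CPM in clusters 1, 2 and 9, and summed G2/M genes at 1598, 5459 and 14554. Cluster 1 was thus low in both lists, cluster 2 highest in S phase genes and cluster 9 highest in G2/M genes. Rprm stood at 68.7 CPM in cluster 1, 29.0 in cluster 2 and 40.6 in cluster 9, and Igfbp5 at 624, 337 and 424. Without the 4 genes of the rule the same clustering again gave 13 clusters with rule-positive cells the majority in 3, which held 432 of the 615 (70.2%).

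**Figure D3:**
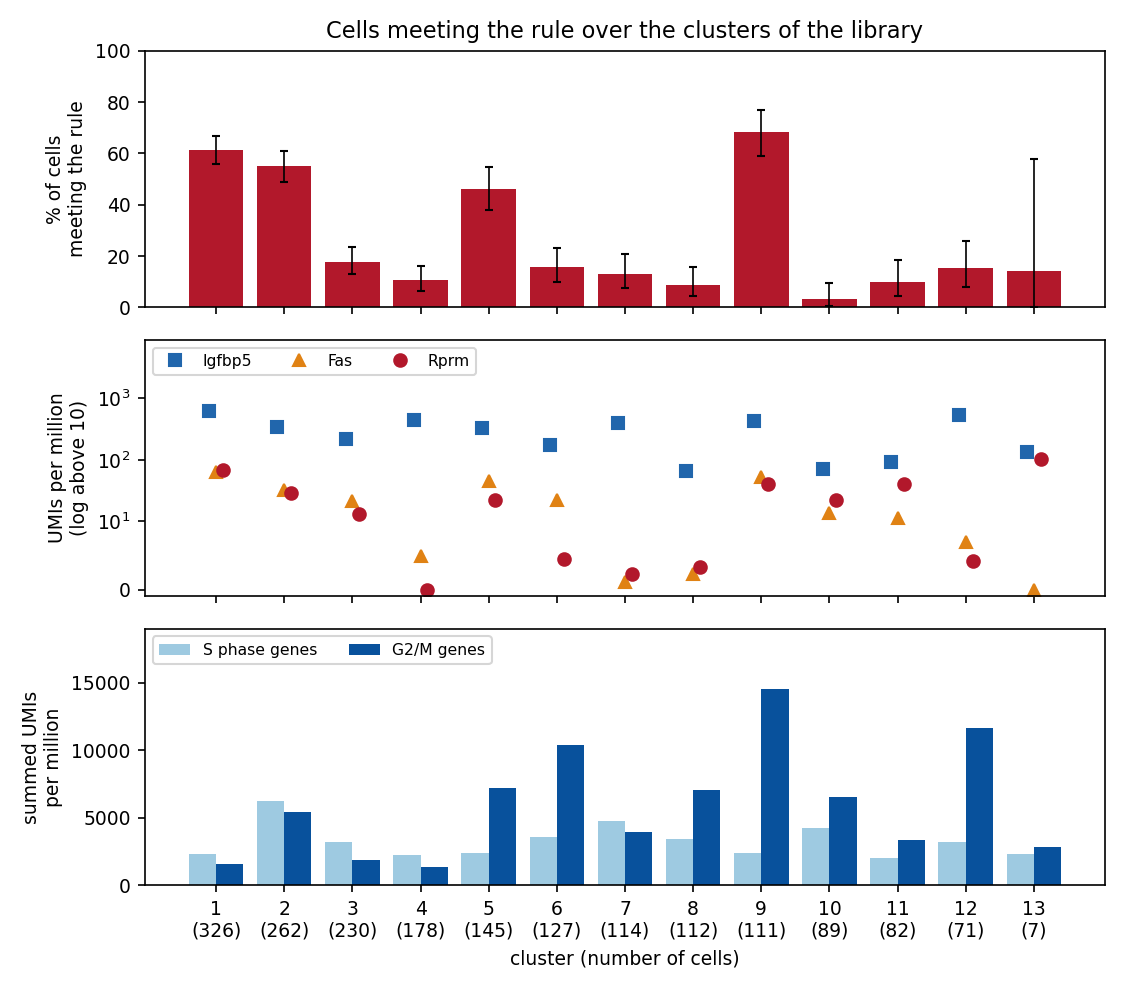
Share of rule-positive cells with 95% Clopper-Pearson intervals (top), summed level in CPM of Igfbp5, Fas and Rprm (middle, linear to 10 and logarithmic above) and of S phase and G2/M gene lists (bottom) in the 13 clusters, with the number of cells of each in brackets. Clusters 1, 2 and 9 have shares of 55.0% to 68.5%, and Rprm is at 0 in cluster 4, where Igfbp5 stands at 440.

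Over all rule-positive cells the cell cycle lists were near the level of the other cells. Summed S phase genes stood at 3675 CPM against 3416 in the others, and summed G2/M genes at 6025 against 5699. Of 40 S phase and 49 G2/M genes measured, 0 passed 2-fold in either direction, with median log2 ratios of 0.10 and 0.07. Over all genes at 10 CPM, 0.443% were higher and 1.06% lower, so the counts of 0 are near that share. Within the rule-positive cells the genes of the rule were uneven across the cycle. In 89 cells (14.5%) the 2 lists together gave less than 3000 CPM, and in the other 526 they gave that or more. Rprm stood at 111 CPM in the 89 cells (84.6 to 143) and 47.9 in the 526 (41.6 to 54.9). Fas stood at 97.9 and 56.2, and Igfbp5 at 914 and 532. Fndc1 did not show this order, at 32.0 and 34.2, and Fgf8 had the opposite one, at 33.9 (20.1 to 53.6) and 70.6 (62.9 to 78.9). The median depth was 6033 UMIs in the 89 cells and 7643.5 in the 526, so the threshold of 3 UMIs asks for a higher level in the shallower cells, and its part in these differences was not tested. The other kept cells were also set by the rule, since 638 of them held fewer than 3 UMIs of its genes. Of these other cells, 273 had low cycle lists and 966 higher ones. Igfbp5 stood at 321 CPM (292 to 351) in the 273 and 190 (180 to 200) in the 966, the same order as in rule-positive cells. Fndc1 had the opposite order, at 2.1 (0.433 to 6.14) and 9.53 (7.41 to 12.1). Rprm stood at 12.6 (7.47 to 19.9) and 5.80 (4.18 to 7.84) and Fas at 9.80 and 10.5, with overlapping intervals for these 2 genes.

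A compact group rich in Rprm came out when the clustering was made finer, at a resolution of 1.6 in place of 0.8. Of the 19 clusters, 1 held 68 cells, of which 66 were rule-positive (97.1%, 89.8 to 99.6), and all 68 had lain in cluster 1. These 68 cells are 3.67% of the kept cells and held 99 of the library's 328 Rprm UMIs (30.2%). Rprm stood at 220.0 CPM in them (179 to 268) and at 38.1 in the other rule-positive cells, and was found in 55.9% and 18.6% of the cells. Igfbp5 stood at 878 and 542 CPM, Fas at 93.3 and 57.2, and Fndc1 at 57.8 and 31.4. Since the group was picked for its share of rule-positive cells after the values were seen, these levels describe it and test nothing.

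The genes that stood out in these 68 cells, beside the rule-positive cells outside them, fell into a few kinds. Mitotic genes were nearly missing: Ccnb1 stood at 2.22 against 212 CPM, Top2a at 2.22 against 162 and Cdk1 at 4.44 against 223. The low level of Top2a was not particular to these cells. It stood at 3.73 CPM over all of cluster 1, in which they had lain, and at 4.06 in another finer cluster of 182 cells. The comparison cells include those of clusters 2 and 9, which were high in cell cycle genes. Genes of retinoic acid handling were higher, with the retinoic acid hydroxylase gene Cyp26a1 at 129 against 37.9 (3.40, 2.48 to 4.60) and Rarb at 71.1 against 26.7 (2.66, 1.74 to 3.96). The membrane peptidase gene Mme (57.8 against 16.2), the tissue factor gene F3 (53.3 against 15.3), the SRY-box gene Sox6 (68.9 against 21.1), the sulfatase gene Sulf1 (55.5 against 18.2) and Dlk2, a homologue of Dlk1 (75.5 against 28.1), had ratios of 2.69 to 3.58. Foxe1 (37.8 against 15.3) and Sox2 (44.4 against 20.0) were also higher, whereas Fgf8 (71.1 against 66.0) was level. Of 3059 genes that reached 50 CPM, 34 stood at least 2-fold higher in the 68 cells and 107 lower. When the 4 genes of the rule were kept out of the finer clustering, all 68 cells lay together in a larger cluster of 183 cells, of which 139 were rule-positive (76.0%), with Rprm at 111 CPM.

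**Figure D4:**
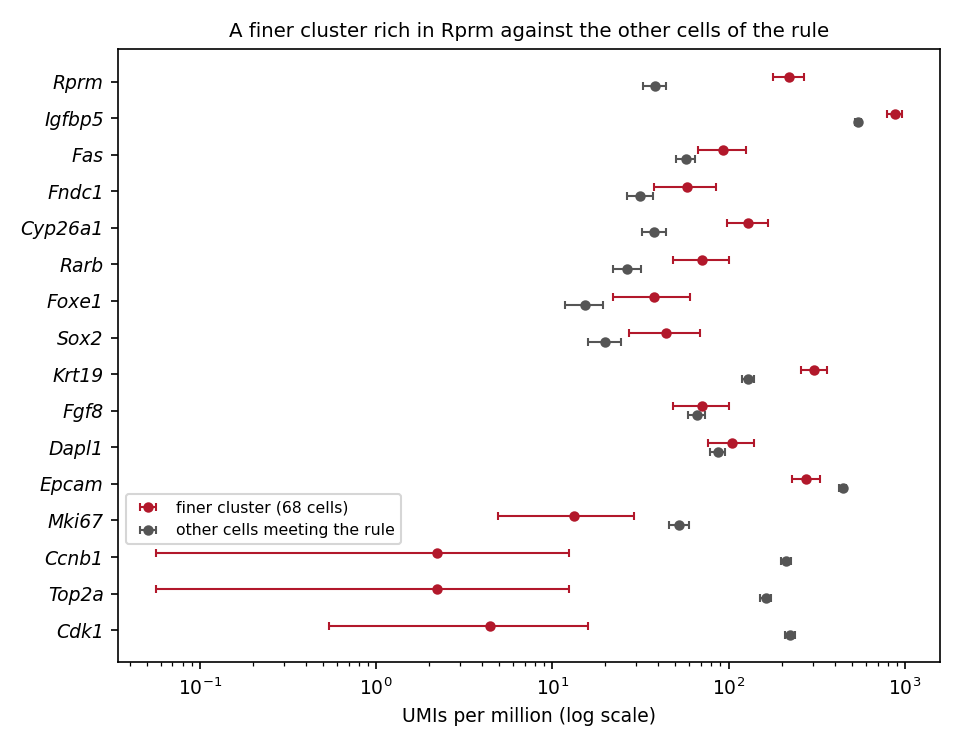
Summed level in CPM (log axis) of 16 genes in the 68 cells of the finer cluster (red) and in the rule-positive cells outside it (grey), with exact 95% Poisson intervals. Rprm stood at 220.0 against 38.1 CPM, and the mitotic genes Ccnb1, Top2a and Cdk1 at 4.44 or less against 162 to 223.

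Rule-positive cells with and without each scarce gene of the rule differed in different genes. Of 2949 genes, 9 were at least 2-fold higher in the 139 rule-positive cells with a Rprm UMI than in the 476 without (0.305%) and 3 were lower (0.102%). The higher genes included the cadherin gene Cdh1 (52.8 against 21.0 CPM), the netrin gene Ntn1 (51.1 against 21.3) and Slc2a3 (61.6 against 26.3). Slc2a3 was thus higher with Rprm although it was low in rule-positive cells as a whole. The lower genes were Krt17, Sema3a and Id2 (66.9 against 139 CPM). Between the 191 cells with Fas and the 424 without, 0 of 2927 genes were at least 2-fold higher (0%) and 1 was lower, Krt17 (0.0342%). Krt17 rested on few cells in these splits too, since 10 cells held 329 of its 390 UMIs. Cells with Fndc1, 140 in number, had 5 genes higher and 5 lower of 2944 (0.17% each way), and the higher ones included Igfbp3 (490.5 against 136 CPM), Anxa3 and Etv5 (80.9 against 37.5), which were also the genes high in Sox10-positive cells. Summed G2/M genes stood at 6014 CPM with a Rprm UMI and 6029 without, whereas summed S phase genes were lower with Rprm, at 3316 (3210 to 3423) against 3783 (3721 to 3846). These splits were chosen after other values had been seen.

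The same rule was applied to the other 3 libraries, on which it had not been set. In submandibular epithelium it took 1341 of 3767 kept cells (35.6%), beside 33.2% in the parotid, and Igfbp5 again gave most of the UMIs (84.3%). Rprm was scarce there, at 1.13 CPM over all kept cells and with a UMI in 2.54% of the rule-positive cells, whereas Fas was found in 45.8% of them. The submandibular rule-positive cells were shallower than the others, with medians of 7405 and 10871 UMIs, which is the opposite of the parotid order. In parotid mesenchyme the rule took 511 of 4421 cells (11.6%), Rprm gave 81.9% of the UMIs, and the leading genes were muscle genes such as Acta1 and Sln, with 38 of 2957 genes at least 2-fold higher (1.29%) and 16 lower (0.541%). In submandibular mesenchyme it took 397 of 4842 cells (8.20%), on Igfbp5 (96.3%), with Msc and Myod1 among the leading genes, and 37 of 3063 genes were higher (1.21%) and 40 lower (1.31%). Barx2 (13.5) and Krt15 (9.90) were among its leading genes too. Both were also higher in parotid rule-positive cells than over all other cells of the parotid epithelium. Dapl1 had ratios of 14.9 (42 UMIs) in parotid and 31.0 (33 UMIs) in submandibular mesenchyme, and Fgf8 33.5 (39 UMIs) in parotid mesenchyme, at levels under 10 CPM.

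Of the 7 genes at least 2-fold higher in parotid rule-positive cells, each had a ratio above 1 in submandibular epithelium and 4 were at least 2-fold higher there. In that library 64 of 3001 genes were higher (2.13%) and 42 lower (1.4%). Among them Cdo1 had a ratio of 4.07 (3.74 to 4.43), Galnt18 3.87 (3.34 to 4.49) and Dapl1 3.78 (3.55 to 4.02). Fgf8 was scarce in submandibular epithelium, with 4 UMIs in rule-positive cells, and its ratio of 1.58 had an interval of 0.33 to 6.64. Of the 9 lower genes 4 were at least 2-fold lower there, Dcn (0.17), Tfap2b (0.30), Irx2 (0.33) and Etv4 (0.37). Of the 9 genes, 3 had ratios above 1, among them Lmo1 (1.53) and Nrarp (16.5 against 12.3 CPM, 1.34). With 1 library per gland no test of a difference between the glands exists.

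**Figure D5:**
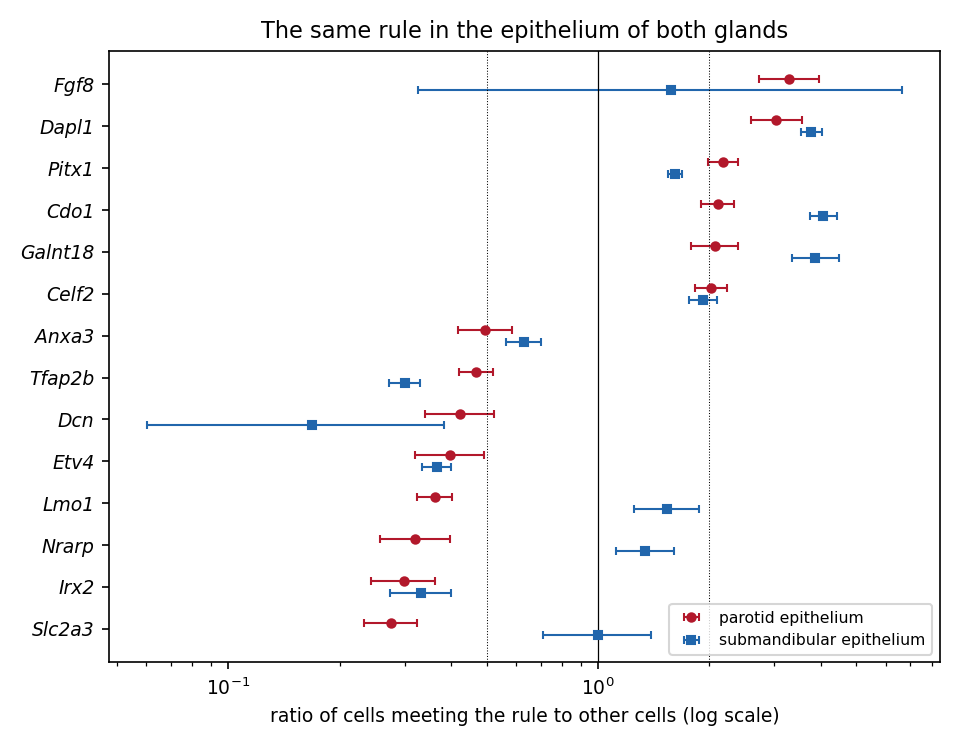
Ratio of rule-positive cells to all other kept cells (log axis) for 14 of the 16 genes past 2-fold in parotid epithelium, in the parotid (red circles) and submandibular (blue squares) epithelium library. Bars are exact 95% intervals of counting error, the solid line marks equal levels and dotted lines 2-fold. The 6 genes shown that were higher in the parotid cells lie right of the solid line in both glands, and Lmo1 and Nrarp lie on opposite sides of it.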

How the data were processed

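The deposited values are counts: whole-number UMI counts per gene and cell barcode, not normalized, made by the authors with Cell Ranger 2.1.1 and the mm10 genome per the submitters' processing notes. The 4 libraries hold 15351 barcodes, 1996 of them and 14004908 UMIs in parotid epithelium (median 6662.5 per barcode). Of 15231 distinct barcode sequences, 120 occur in more than 1 library. Counts were summed over cells and given per 1000000 UMIs (CPM) (Python 3.11.15, scipy 1.17.1), with exact 95% Poisson intervals, exact conditional binomial intervals for ratios and Clopper-Pearson intervals for shares, all for counting error only. Where a side had 0 UMIs, 3 UMIs over the set were used for a ratio. With 1 library per group no test was made. Scrublet (scanpy 1.11.5) called 3 doublets, a share too small for a working call, and no doublets were taken out for the main values. Clusters are Leiden clusters (igraph 0.11.9, resolution 0.8, 30 principal components, 15 neighbours). Ratio calls were checked on simulated data. TMM scaling used edgeR 4.0.16.

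Genes were named by rule: up to 20 higher and 15 lower genes past 2-fold at 50 CPM, up to 15 higher and 10 lower than in each other part, and up to 6 members of each of 40 gene lists with the largest absolute log2 ratio. Haemoglobin, mitochondrial, ribosomal protein, sex-linked and immediate early genes and unnamed gene models stayed out. Genes outside this rule were chosen after their values were seen. The cells, lists and rules were chosen with earlier results of these data known. Of 606 list symbols, 604 were matched in the files. Alternatives were other filters on barcodes, other thresholds of the rule, other scalings and other levels and ratios. Some results that meet these rules are not reported here.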

Additional observations from a re-analysis of the deposited data

How the results depend on the processing

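No paired analysis was possible because each group is 1 library. Intervals cover counting error, and nothing here separates the gland from the pool of embryos, the dissection or the library. Of 768 values of 48 named genes under 16 alternatives, 635 moved by less than their counting interval, 128 moved by more with the same sign, and 5 changed sign; the cause was not tested. Without the Cxcl14 term the log2 ratios of Lmo1 and Robo2 were 0.048 and 0.16. A rule chosen after seeing the data took at least 2 UMIs of Rprm, Fndc1 and Fas and did not use Igfbp5. With it the log2 ratios of Cldn3, Gabrp and Cldn23 were 0.47, 0.22 and 0.22, and that of Slc2a3 was -0.58.

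The share of rule-positive cells followed the rule: 42.1% with 2 UMIs, 24.6% with 4, 30.4% with 400 CPM, 36.0% without the Sox10 term and 41.9% without the Cxcl14 term. It was 11.2% with at least 2 UMIs of Rprm, Fndc1 and Fas and Igfbp5 not used, and 27.6% with Igfbp5 alone. The share of rule-positive cells with a UMI fell, after thinning to 3000 UMIs, to 12.2% for Rprm, 82.2% for Igfbp5, 9.5% for Fndc1 and 15.2% for Fas. The 7 genes higher than in all other cells became 11 at 5% mitochondrial UMIs, 4 without the Sox10 or the Cxcl14 term, 2 by the lower limit of the interval, 21 at 20 CPM, 32 at 1.5-fold and 1817 with no minimum level. The 9 lower genes became 14 without the Cxcl14 term, 39 at 20 CPM, 31 at 1.5-fold and 831 with no minimum level. The 1 gene higher than in each other part became 2 at 5% mitochondrial UMIs, with 2 rule UMIs, without the deepest 5% of cells, in the middle depth range and by means over cells. It became 0 with 400 CPM and by the lower limit, 6 at 20 CPM, 8 at 1.5-fold and 46 with no minimum level. The 0 genes lower than in each became 2 at 1.5-fold and 858 with no minimum level. The counts with no minimum level include genes with 0 UMIs on 1 side, for which 3 UMIs were used. Such a gene can be called against its own counts: Bhlha15, with 0 UMIs in rule-positive cells, had a ratio of 5.32. These counts are therefore not numbers of genes truly higher or lower. Among 357 list genes, the 10 higher became 3 at 50 CPM and 6 against the remaining cells, and the 29 lower became 7 at 50 CPM.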

Other observations

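Rule-positive cells chosen without Igfbp5, by at least 2 UMIs of Rprm, Fndc1 and Fas, numbered 207 (11.2%), a choice made after the data had been seen. Igfbp5, which this choice did not use, stood at 513 CPM in them and 318 in the other kept cells (1.61, 1.50 to 1.74). The genes past 2-fold were partly others than in the 615 cells. Foxe1 (22.7 against 6.05 CPM), Rarb (39.5 against 14.7), Nkx2-3 (21.5 against 8.07), Krt19 (208 against 87.6), Barx2 (822 against 375), Upk3bl, a uroplakin-related gene (112 against 53.2), and Galnt18 (113 against 46.2) had ratios of 2.11 to 3.76. Fgf8 had a ratio of 1.88 (1.50 to 2.34) and Dapl1 1.78 (1.47 to 2.15). Among genes lower in the 615 cells, Slc2a3 (0.67), Anxa3 (0.57), Etv4 (0.55) and Nrarp (0.51) were no longer past 2-fold. Tfap2b (0.39), Dcn (0.32), Irx2 (0.23) and Lmo1 (0.19) still were. Cells chosen by at least 3 UMIs of Igfbp5 alone, 512 in number, had Fgf8 at a ratio of 3.16 (2.64 to 3.79), Dapl1 at 2.83 (2.43 to 3.31) and Rprm at 3.14 (2.51 to 3.94).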
